A study of Mus musculus with 4 samples.

Results

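The regions described here are stretches of open chromatin that were called in 3 mouse muscles and not called in the soleus (Sol). They were chosen by merging all ATAC-seq peaks that overlapped by at least 1 bp and keeping the merged regions that held a peak of the extensor digitorum longus (EDL) list, the quadriceps (Quad) list and the diaphragm (Dia) list and no peak of the Sol list. This selection gave 1166 of 53883 merged regions. They made up 7.44% of the 15663 regions with a peak in EDL, Quad and Dia, with a 95% Wilson interval of 7.04% to 7.87%. The same share was 6.00% for regions without an EDL peak only, 3.91% for regions without a Quad peak only and 23.1% for regions without a Dia peak only. The other 14497 regions with peaks in EDL, Quad and Dia also held a Sol peak and are called the regions in all 4 lists.

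ATAC-seq uses the Tn5 transposase to insert sequencing adapters where DNA is accessible, so that reads pile up at active promoters, enhancers and other sites kept free of nucleosomes. The study mapped such sites in the EDL, Quad, Sol and Dia of wild-type C57BL/6 mice to ask how the regulatory repertoires of muscles with different fiber types compare. No transgene, exercise or other treatment was applied to these 4 groups according to the labels, and the study's methods describe male C57BL/6J animals. Each muscle was represented by 1 peak list, which the labels call pooled. The study's figure legends give group sizes for its muscle ATAC-seq. How many animals or replicates each list combines is not stated there or in the labels, and no separate replicates were compared. All intervals given here cover counting error over regions only, and no p-value between muscles was computed.

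EDL and Quad are fast limb muscles that rely mainly on glycolysis. Sol is a postural muscle rich in slow, oxidative fibers that express the slow myosin heavy chain Myh7, and Dia is a mixed respiratory muscle that works without rest. Open sites of muscle nuclei carry binding sites of factors such as MEF2 and the myogenic E-box proteins, whereas CTCF sites anchor chromatin loops and insulate neighboring genes in most tissues. The lists held 28784 peaks in Sol, 30136 in EDL, 40337 in Quad and 21582 in Dia, with fixed widths between 188 and 232 bp. The authors' scores were whole multiples of one step per list, and if they were scaled to HOMER's default of 10 M tags, the libraries held between 78.1 M tags in Quad and 104.6 M in Sol (M, mega). The weakest called peak then held 32 tags in Sol and between 25 and 36 tags in the other lists. The labels fitted the myosin genes only in part. Myh7 was the nearest gene of 2 peaks in Sol and of none in the other lists. Myh1, a fast myosin, had 1 peak in Quad alone, and Myh4, the fastest myosin, had 1 peak each in EDL, Quad and Sol. Myh2, the myosin of fast oxidative fibers, had 2 peaks each in EDL and Quad and 1 each in Sol and Dia. Whole muscle was used, so fewer nuclei of a cell type and less open chromatin per nucleus cannot be told apart.

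The sequences below stand for the strongest regions that lay far from any Sol peak. They are the plus strand of GRCm38.p6, the RefSeq assembly behind mm10, and capitals mark every match to the 12 motifs searched. Exonic bases of curated transcripts at the ends of a region were left out. The first 3 lie in introns. The Plin4 sequence spans chr17:56108709-56109008, the second lies in an intron of Ldb3 at chr14:34548746-34548991 although its nearest start site is that of 9230112D13Rik, and the third lies in the first intron of Arhgap10 at chr8:77481788-77482020 with 0610038B21Rik as nearest gene.
Plin4: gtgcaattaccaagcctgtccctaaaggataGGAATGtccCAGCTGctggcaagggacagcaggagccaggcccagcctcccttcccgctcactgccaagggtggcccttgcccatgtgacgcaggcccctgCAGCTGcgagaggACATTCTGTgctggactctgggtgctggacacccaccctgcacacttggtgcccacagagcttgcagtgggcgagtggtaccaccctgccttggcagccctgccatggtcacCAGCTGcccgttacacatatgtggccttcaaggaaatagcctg
9230112D13Rik: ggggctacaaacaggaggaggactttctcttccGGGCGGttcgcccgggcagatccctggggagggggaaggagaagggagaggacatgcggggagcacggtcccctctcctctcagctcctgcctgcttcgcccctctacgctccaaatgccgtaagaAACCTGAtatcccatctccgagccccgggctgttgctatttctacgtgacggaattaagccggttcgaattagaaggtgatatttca
0610038B21Rik: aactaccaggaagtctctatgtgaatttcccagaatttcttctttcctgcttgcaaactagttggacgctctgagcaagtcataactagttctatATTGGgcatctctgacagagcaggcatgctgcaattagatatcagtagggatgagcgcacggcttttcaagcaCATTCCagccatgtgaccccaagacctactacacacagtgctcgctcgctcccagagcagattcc

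The 2 highest promoters without a Sol peak within 5 kb belonged to Acta1 at chr8:123894776-123894992 and Dvl1 at chr4:155847138-155847401. The Acta1 sequence ran antisense to the gene and held 1 CArG match, the binding site of serum response factor, beside 1 TEAD match (GGAATG) and 2 GC boxes (GGGCGG). The Dvl1 sequence held 5 GC boxes and 1 NFAT match.
Acta1: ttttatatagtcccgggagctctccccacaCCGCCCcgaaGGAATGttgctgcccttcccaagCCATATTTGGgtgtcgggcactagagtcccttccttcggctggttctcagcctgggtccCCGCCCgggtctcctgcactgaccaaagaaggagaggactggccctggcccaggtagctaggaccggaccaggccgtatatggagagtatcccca
Dvl1: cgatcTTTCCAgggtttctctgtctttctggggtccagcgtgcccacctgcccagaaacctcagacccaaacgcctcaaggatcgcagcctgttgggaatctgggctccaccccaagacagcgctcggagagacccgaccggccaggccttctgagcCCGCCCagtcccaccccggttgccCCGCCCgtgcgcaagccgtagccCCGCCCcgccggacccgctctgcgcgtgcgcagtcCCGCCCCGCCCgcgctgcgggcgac

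A further set shows the highest region that was not exonic from 5 of the gene lists described further on. The highest region of the sarcomere list is that of Acta1 above. Fabp3 at chr4:130306792-130307082 stands for the slow-fiber genes, Stim1 at chr7:102267140-102267372 for calcium handling and Phkg1 at chr5:129879089-129879321 for glycogen breakdown. Mef2a at chr7:67421753-67422052 stands for the transcription regulators and Tbx2 at chr11:85832490-85832614 for the positional T-box and homeobox genes. The Fabp3 sequence carried a nuclear receptor match (AAGGTCA) that shared 1 base with an AP-1 match (TGANTCA).
Fabp3: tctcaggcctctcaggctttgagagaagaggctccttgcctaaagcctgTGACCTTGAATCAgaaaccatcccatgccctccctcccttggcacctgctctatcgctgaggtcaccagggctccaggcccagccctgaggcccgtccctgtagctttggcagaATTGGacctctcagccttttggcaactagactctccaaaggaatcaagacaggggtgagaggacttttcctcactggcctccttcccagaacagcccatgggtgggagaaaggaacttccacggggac
Stim1: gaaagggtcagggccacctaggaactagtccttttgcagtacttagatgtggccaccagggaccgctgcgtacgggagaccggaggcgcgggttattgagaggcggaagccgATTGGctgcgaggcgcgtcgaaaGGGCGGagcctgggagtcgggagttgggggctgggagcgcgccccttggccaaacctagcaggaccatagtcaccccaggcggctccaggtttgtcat
Phkg1: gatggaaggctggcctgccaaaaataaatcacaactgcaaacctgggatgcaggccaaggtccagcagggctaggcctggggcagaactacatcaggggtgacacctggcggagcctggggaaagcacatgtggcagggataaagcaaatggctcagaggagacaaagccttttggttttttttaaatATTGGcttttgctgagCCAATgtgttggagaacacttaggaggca
Mef2a: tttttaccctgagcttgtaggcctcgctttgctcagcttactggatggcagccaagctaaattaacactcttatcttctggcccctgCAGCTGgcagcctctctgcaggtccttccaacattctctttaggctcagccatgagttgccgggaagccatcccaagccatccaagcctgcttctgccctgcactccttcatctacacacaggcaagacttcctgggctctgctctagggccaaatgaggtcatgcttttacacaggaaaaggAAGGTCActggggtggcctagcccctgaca
Tbx2: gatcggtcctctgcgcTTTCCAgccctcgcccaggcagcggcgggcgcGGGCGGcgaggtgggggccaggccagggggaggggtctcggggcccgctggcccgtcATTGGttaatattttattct

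The last set shows the 3 highest regions outside promoters that had a CTCF match and no Sol peak within 5 kb. It was chosen after the motif shares had been seen, because CTCF was the only motif that differed from each of the other groups of regions. The regions lay in introns of Ak5 at chr3:152477788-152478041, of Ctnnbip1 at chr4:149549237-149549536 and of Tmprss6 at chr15:78447719-78447974, with Zzz3, Ctnnbip1 and Kctd17 as nearest genes. Each held 1 match to the CTCF core.
Zzz3: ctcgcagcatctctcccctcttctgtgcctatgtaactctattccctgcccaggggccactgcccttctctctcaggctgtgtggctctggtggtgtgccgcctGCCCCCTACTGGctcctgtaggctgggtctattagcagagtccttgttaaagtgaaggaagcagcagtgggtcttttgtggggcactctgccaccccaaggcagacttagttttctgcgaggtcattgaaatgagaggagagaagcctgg
Ctnnbip1: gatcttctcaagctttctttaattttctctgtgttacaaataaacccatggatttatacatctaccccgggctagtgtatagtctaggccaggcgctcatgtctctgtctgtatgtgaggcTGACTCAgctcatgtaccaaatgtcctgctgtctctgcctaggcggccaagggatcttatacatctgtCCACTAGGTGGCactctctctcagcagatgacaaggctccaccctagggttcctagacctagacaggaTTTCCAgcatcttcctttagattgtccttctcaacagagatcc
Kctd17: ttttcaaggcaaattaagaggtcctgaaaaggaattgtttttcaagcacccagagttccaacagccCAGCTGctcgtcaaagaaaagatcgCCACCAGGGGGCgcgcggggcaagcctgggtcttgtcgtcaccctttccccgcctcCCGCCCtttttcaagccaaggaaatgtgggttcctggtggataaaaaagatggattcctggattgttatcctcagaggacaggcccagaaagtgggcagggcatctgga

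Peaks in a list were ranked by score and given as a percentile, with 100 for the highest peak. The regions missing from Sol were modest peaks in all 3 muscles. Their median percentile was 35.7 in EDL, with quartiles at 20.5 and 54.4, 49.4 in Quad, with quartiles at 32.4 and 66.6, and 32.7 in Dia, with quartiles at 16.7 and 49.7. The regions in all 4 lists had medians of 71.3, 78.4 and 63.5 in the same order. These ranks come from the scores that decided which peaks were called and are given as a description. Of the 1166 regions, 737 (63.2%) ranked highest in Quad, 239 in EDL and 190 in Dia. The medians of the regions in all 4 lists were likewise highest in Quad and lowest in Dia. That order is thus not particular to the regions missing from Sol. The share ranked highest in Quad was not computed for the regions in all 4 lists. The ranks moved together across the regions, with Spearman's rho of 0.713 between EDL and Quad, 0.609 between EDL and Dia and 0.606 between Quad and Dia. In all 3 lists 537 regions ranked below the median, 185 ranked above it and 46 ranked above percentile 75.

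**Figure D1:**
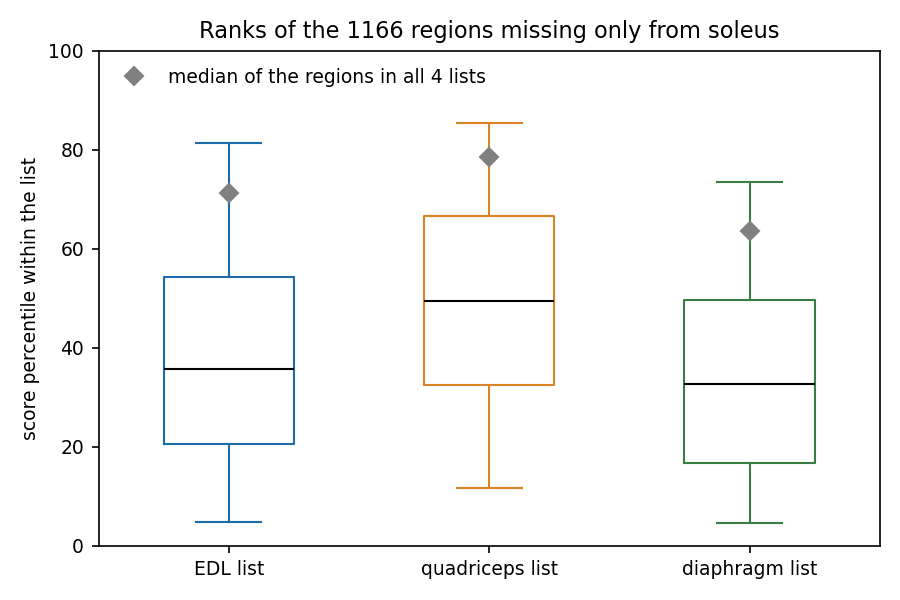
Score percentile of the 1166 regions missing only from Sol in the EDL, Quad and Dia lists (boxes, quartiles and median; whiskers, percentiles 5 and 95), with the median of the 14497 regions in all 4 lists as a gray diamond. The boxes center on medians of 35.7, 49.4 and 32.7, below the diamonds at 71.3, 78.4 and 63.5.

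The share of regions without a Sol peak was lower at each higher rank. Regions were binned by their mean percentile in EDL, Quad and Dia. Of the 450 regions in the lowest bin, up to percentile 20, 39.8% had no Sol peak. The share was 19.5% from 20 to 40, 10.2% from 40 to 60, 3.12% from 60 to 80 and 1.07% of the 4931 regions above 80. Sol lay between EDL and Dia in every bin. Its list was also between theirs in length, with 28784 peaks against 30136 in EDL and 21582 in Dia. The part of list length was not tested. The lowest and highest bins gave 35.04% and 0.995% without an EDL peak, 19.9% and 0.790% without a Quad peak and 65.8% and 3.90% without a Dia peak. The intervals of Sol and EDL overlapped in 4 of the 5 bins and were apart from 40 to 60, at 10.2% (9.25% to 11.3%) for Sol and 6.79% (6.01% to 7.67%) for EDL.

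**Figure D2:**
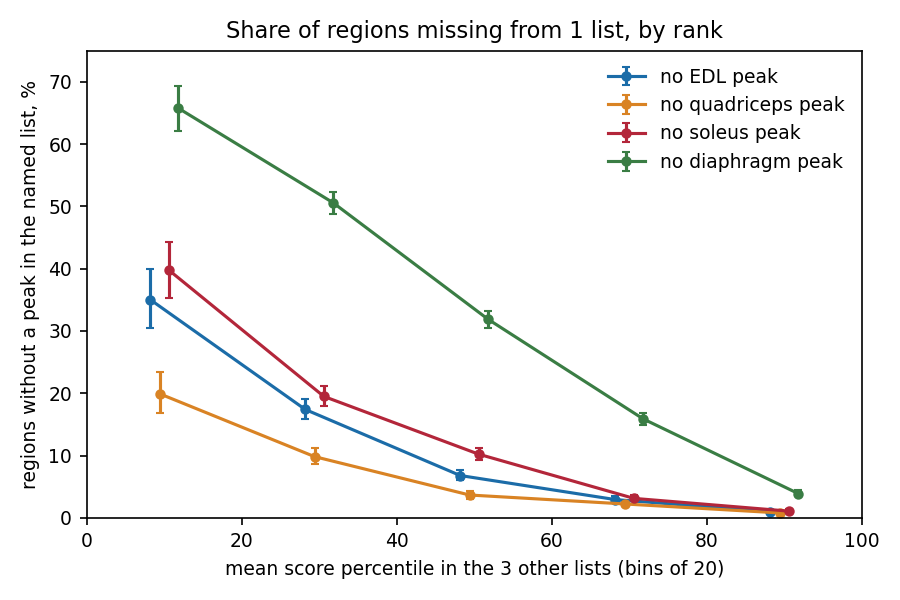
Share of regions with peaks in 3 lists that had no peak in the named list, by mean score percentile in the 3 lists (points, bins of 20 percentiles, shifted sideways for legibility; bars, 95% Wilson intervals). The Sol share falls from 39.8% to 1.07% and lies between the EDL and Dia shares in each bin.

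Many of the strongest regions missing from Sol had a Sol peak next to them. A Sol peak lay within 500 bp of 189 of the 1166 regions (16.2%, 14.2% to 18.4%) and within 100 bp of 92 of them, and 5 regions touched a Sol peak without overlapping it. The share within 500 bp rose from 3.91% in the lowest rank bin to 7.62%, 17.0%, 35.9% and 69.8% in the next bins. Of the 46 regions above percentile 75 in all 3 lists, 35 had a Sol peak within 500 bp and 2 had none within 5 kb. With 50% reciprocal overlap asked of shared peaks, 43.6% of the regions missing only from Sol had a Sol peak within 500 bp. Unlike the 16.2%, this share also counts Sol peaks that overlapped a region by too little to be shared. At the other end, 789 regions had no Sol peak within 5 kb, and the median distance to the nearest one was 9906 bp.

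The lists differed in how often they held a peak beside a region they missed. This share was higher the longer the missing list was, from 21582 peaks in Dia to 40337 in Quad. The part of list length in it was not tested. The missing list had a peak within 500 bp of 19.8% of the regions missing only from EDL, 34.6% of those missing only from Quad and 7.87% of those missing only from Dia. The Sol value of 16.2% differed from that of EDL by -3.55 percentage points (95% Newcombe interval of the difference, -6.91 to -0.252), from that of Quad by -18.4 (-22.8 to -14.0) and from that of Dia by 8.34 (6.17 to 10.7). The nearest gene had no Sol peak at all for 232 of the 1166 regions (19.9%). Of these, 206 had no Sol peak within 5 kb. The same share was 12.03% for Quad, 7.86 points lower (4.25 to 11.2), whereas the differences to EDL and Dia had intervals of -3.11 to 3.76 and -2.09 to 3.06 points.

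Regions just inside the rule, which touched a Sol peak, included one nearest to Ccdc85c at percentiles 86.0 in EDL, 91.3 in Quad and 90.4 in Dia, and one nearest to Irf1 at 46.6, 54.5 and 41.7. Just outside it, a region nearest to Stam2 overlapped a Sol peak by 1 bp and ranked at 70.7 in EDL, 86.8 in Quad, 61.4 in Dia and 58.6 in Sol. Another nearest to Tmcc1 also overlapped by 1 bp and ranked at 17.1, 18.02, 13.2 and 17.6.

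The 10 highest-ranked regions were mostly promoters with a Sol peak close by that did not overlap them. They were nearest to Vkorc1l1, Pknox1, Oard1, Imp4, Ptov1, Cirbp, Pdk4, Aurkaip1, Stim1 and Rnf170. Of these, 8 were annotated as promoters and 9 had a Sol peak within 500 bp. The highest, at the promoter of Vkorc1l1, ranked at 99.02 in EDL, 99.5 in Quad and 98.98 in Dia with a Sol peak 14 bp away. Pdk4, the kinase that restrains glucose oxidation by switching off pyruvate dehydrogenase, had its region at -412 bp from the start site, at percentiles 92.9, 93.9 and 89.3, with a Sol peak 16 bp away. Stim1, the calcium sensor of the reticulum that opens store-operated channels, ranked at 85.97, 93.6 and 90.2 with a Sol peak 26 bp away. The exception was Cirbp, a cold-inducible RNA-binding protein, whose region at 93.9, 90.1 and 93.2 lay 2328 bp from the nearest Sol peak. Oard1, Imp4 and Rnf170 were the nearest gene of no Sol peak, although Sol peaks assigned to other genes lay 55, 161 and 35 bp from their regions.

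The 10 highest regions without a Sol peak within 5 kb were 4 promoters and 6 introns. Plin4, a lipid droplet coat protein of muscle and fat, came first with its intronic region, printed above, at percentiles 90.05 in EDL, 88.5 in Quad and 81.9 in Dia. Its nearest Sol peak was 8375 bp away and no Sol peak had Plin4 as nearest gene. Acta1, the skeletal alpha-actin of the thin filament, followed with its promoter at 91.97 in EDL, 93.2 in Quad and 69.3 in Dia. Sol held 3 peaks nearest to Acta1, the closest 9652 bp from this region. In its ATAC-seq and ChIP-seq tracks the study displayed a super-enhancer, a long and strongly marked enhancer, along Acta1 in every muscle, Sol included. The missing call therefore does not show that Acta1 was closed in Sol. The Plin4 and Acta1 regions both ranked high in the limb muscles and lowest in Dia, where the median of the regions in all 4 lists was also lowest.

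The promoter of Dvl1, a scaffold of Wnt signaling, ranked at 75.4 in EDL, 85.0 in Quad and 82.3 in Dia. The intronic region of Ldb3, a Z-disc protein, ranked at 83.0, 86.2 and 67.5 under its nearest gene 9230112D13Rik, and the nearest Sol peak was 33788 bp away. A further 4 of these regions lay in introns of Arhgap10, 3110082I17Rik (nearest gene Mir339) and Htra3 and at the promoter of Dhrs3, a retinal reductase. Their percentiles ran from 69.0 to 85.7 in EDL, from 74.6 to 91.8 in Quad and from 53.4 to 69.8 in Dia. Of the 185 regions above the median in all 3 lists, 45 had no Sol peak within 5 kb.

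**Figure D3:**
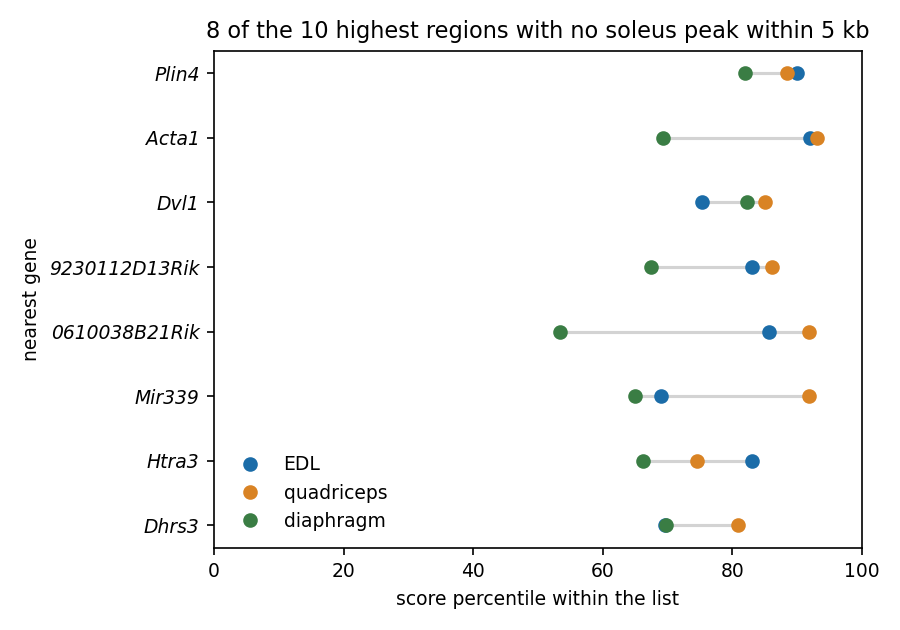
Score percentiles in EDL, Quad and Dia (points, joined by a gray line) of 8 of the 10 highest-ranked regions missing only from Sol that had no Sol peak within 5 kb, named by nearest gene. Plin4 spans 81.9 to 90.05, Acta1 spans 69.3 to 93.2, and the EDL point of Dhrs3 (69.6) lies behind its Dia point (69.8).

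The regions were mostly distal. Of 1166, 288 (24.7%, 22.3% to 27.3%) were promoters, which the authors' annotation runs from 1 kb upstream of a start site, 417 (35.8%) were intronic, 384 (32.9%) were intergenic and 77 (6.60%) lay in exons, untranslated regions or gene ends. Among the introns 149 were first introns and 268 later ones. The absolute distance to the start site was under 1 kb for 338 regions and over 50 kb for 222, with a median of 12175 bp. They had 1093 different nearest genes, of which 1022 had 1 region, 69 had 2 and 2 had 3. The nearest gene was protein-coding for 998 regions and a non-coding RNA gene for 159.

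Promoters were scarcer than in the regions in all 4 lists, where they made up 52.4%, a difference of -27.7 percentage points (-30.2 to -25.0). They were also scarcer than among regions missing only from EDL (31.97%, difference -7.27, -11.2 to -3.38) and more frequent than among regions missing only from Dia (11.3%, difference 13.4, 10.8 to 16.1). The difference to regions missing only from Quad was 2.50 points, with an interval of -1.76 to 6.57 that held 0. It widened to 10.1 points (5.96 to 13.9) when peaks within 500 bp counted as shared. Introns made up 5.74 points more of the regions than in EDL (1.68 to 9.74) and 10.7 points fewer than in Dia (-13.8 to -7.58).

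**Figure D4:**
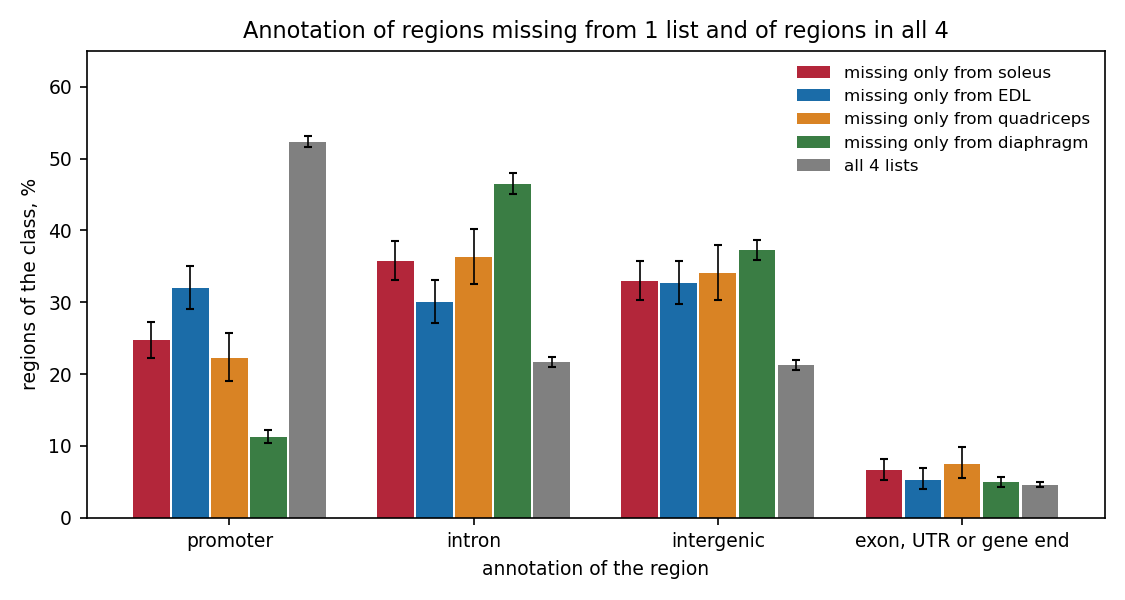
Annotation of the regions missing from 1 list and of the regions in all 4 lists (bars, percent of each group; error bars, 95% Wilson intervals). Promoters make up 24.7% of the regions missing only from Sol, between 11.3% for Dia and 31.97% for EDL, and 52.4% of the regions in all 4 lists.

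Since high-ranked regions are more often promoters, the promoter share was also compared within rank bins. Below percentile 60 the regions without a Sol peak differed from those with one by -2.30, -2.20 and -4.32 points in the 3 bins, and each interval held 0. From 60 to 80 the difference was -10.3 points (-18.3 to -1.99) and above 80 it was -19.2 points (-32.7 to -7.10), at 60.4% of 53 regions against 79.6% of those with a Sol peak. The distance to Sol peaks also split the regions. Promoters made up 45.5% (38.6% to 52.6%) of the 189 regions with a Sol peak within 500 bp, 26.6% of the 188 regions with one between 500 bp and 5 kb and 19.3% (16.7% to 22.2%) of the 789 regions without one within 5 kb, a difference of 26.2 points (18.7 to 33.8) between the first and last groups. The same groups had median percentiles of 58.3, 53.6 and 32.5.

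On the autosomes and X, where 1163 of the regions lay, the share without a Sol peak ran from 4.36% of 321 regions on chromosome X (2.62% to 7.19%) to 9.08% of 837 on chromosome 8 (7.32% to 11.2%). The intervals of these 2 chromosomes did not overlap. They were picked as the extremes of 20 chromosomes.

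CTCF was the only motif of the 12 whose share outside promoters differed, by an interval that excluded 0, from each of the 4 other groups of regions. The 12-base core was searched as the triplet CCA at its start, the pair AG in its middle and the triplet GGC at its end, spaced by 2 bases of any kind, on both strands of the central 200 bp. Outside promoters 103 of 877 regions (11.7%, 9.78% to 14.04%) held a match, against 5.39% of the 42348 merged regions outside promoters in the series. The share was 5.54% of the 6895 regions in all 4 lists, a difference of 6.20 percentage points (4.16 to 8.56). It was 8.25% of regions missing only from EDL (difference 3.49, 0.380 to 6.48), 7.63% for Quad (4.12, 0.702 to 7.23) and 4.63% for Dia (7.12, 5.03 to 9.50). Matches lay a median of 30 bp from the middle of the window in the regions missing only from Sol and 36 bp in the regions in all 4 lists. When only the 20000 highest peaks of each list were used, the difference to the regions in all 4 lists narrowed to 2.90 points (0.769 to 5.66).

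The excess of CTCF matches over the regions in all 4 lists was also measured within rank bins and by distance to Sol peaks. It was 8.20 points up to percentile 20 (16.3% of 160 regions, interval of the difference 1.75 to 15.3), 5.23 points from 20 to 40 (1.72 to 9.37) and 3.06 points from 40 to 60 (0.0163 to 7.23). Above 60 it was 2.62 points, with an interval of -0.900 to 9.16. Of the 636 regions outside promoters without a Sol peak within 5 kb, 12.1% (9.80% to 14.9%) held a match, and the difference to the regions in all 4 lists was 6.57 points (4.19 to 9.38). The share was 10.1% of the 417 intronic regions and 12.8% of the 383 intergenic ones on assembled chromosomes, against 4.58% and 6.37% in all 4 lists. The 103 regions with a match had median percentiles of 30.1 in EDL, 40.03 in Quad and 26.5 in Dia. In promoters 5.21% of 288 regions held a match, 2.63 points more than in all 4 lists (0.563 to 5.85).

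MEF2 matches were scarcer than in the regions in all 4 lists outside promoters, though not in every subset. MEF2 factors drive muscle gene programs and bind an AT-rich site. Outside promoters 27 of 877 regions (3.08%, 2.12% to 4.44%) held a match, against 4.70% of all merged regions outside promoters and 5.61% of the regions in all 4 lists, a difference of -2.53 points (-3.64 to -1.08). The difference was -2.32 points to regions missing only from EDL (-4.58 to -0.284) and -4.06 to regions missing only from Dia (-5.34 to -2.49), and the interval held 0 for Quad. With the 20000 highest peaks of each list the difference to the regions in all 4 lists was 0.440 points (-1.53 to 3.05). With the upper 50% of each list it was -2.80 points (-4.24 to 0.107), and for mean percentiles above 60 it was -2.49 (-4.57 to 2.82), so that each of these 3 intervals held 0. Intervals also held 0 from 40 to 60 (-3.44 to 2.27), in introns (-4.08 to 0.276) and in both groups with a Sol peak within 5 kb. They excluded 0 up to 20 (-11.5 to -1.97), from 20 to 40 (-4.59 to -0.558), in intergenic regions (-4.67 to -1.22) and without a Sol peak within 5 kb (-3.83 to -0.914). In promoters the share was 1.04% against 0.606% in all 4 lists, with an interval that held 0.

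Of the other motifs, GC boxes and the glucocorticoid receptor site differed from the regions in all 4 lists. GC boxes were found in 11.7% of the regions outside promoters, 7.65 points fewer than in all 4 lists (-9.83 to -5.17). Their share over all merged regions outside promoters was 10.3%. The GC box difference was -4.29 points to regions missing only from EDL (-7.93 to -0.773). It was 2.44 points to regions missing only from Dia (0.251 to 4.90), and the interval held 0 for Quad. The glucocorticoid receptor site (ACANNNTGT) was found in 5.82%, 2.16 points fewer than in all 4 lists (-3.68 to -0.306). Its share over all merged regions outside promoters was 7.99%. The E-box (CAGCTG) was found in 23.6%, NFAT (TGGAAA) in 20.2%, CCAAT in 21.2%, TEAD in 14.1%, AP-1 in 10.7%, the nuclear receptor site in 5.02%, MEF3 (TCAGGTT) in 2.51% and CArG in 1.14%, each with an interval of the difference to all 4 lists that held 0. The shares over all merged regions outside promoters were 22.7%, 20.5%, 22.5%, 13.5%, 11.2%, 5.70%, 3.4996% and 1.12% in the same order. Mean GC content outside promoters was 53.7% (SD 6.68 over 877 regions), against 54.9% in all 4 lists and 52.3% in regions missing only from Dia. Matches of different motifs could overlap, and the 48 intervals for motifs outside promoters were not adjusted for their number. A match describes the letters in a window and not binding.

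**Figure D5:**
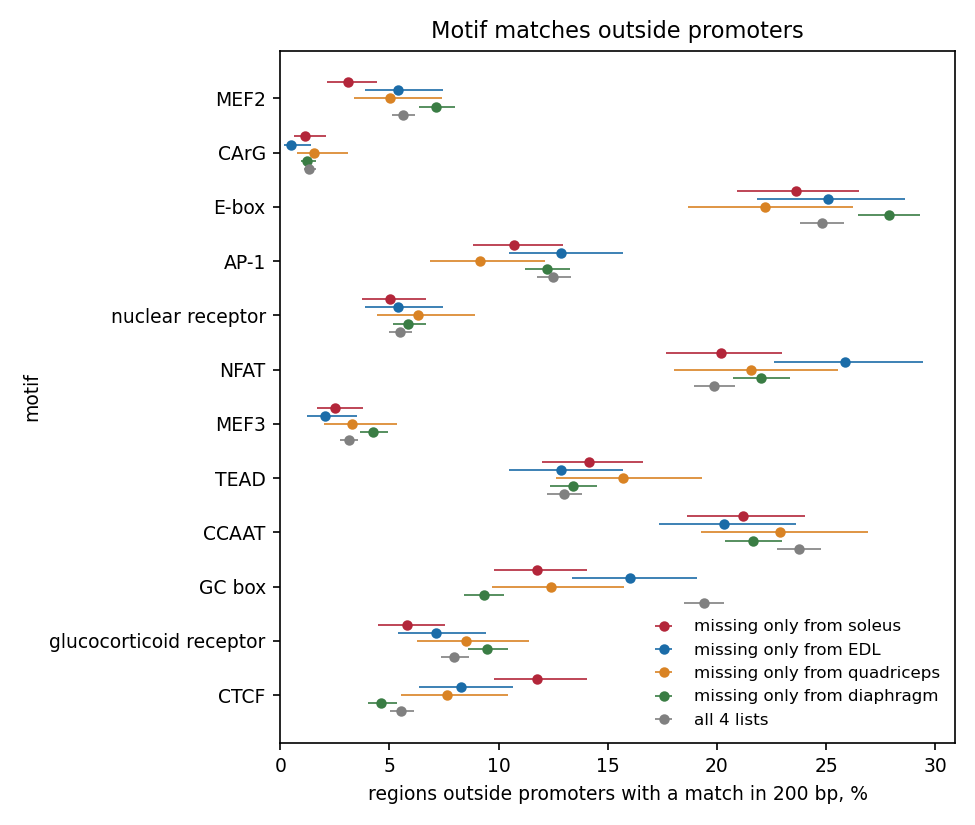
Share of regions outside promoters with a match to each of 12 motifs in the central 200 bp (points, percent; bars, 95% Wilson intervals) for regions missing from 1 list and regions in all 4 lists. For CTCF the regions missing only from Sol stand at 11.7% and the other groups between 4.63% and 8.25%, and for MEF2 they stand lowest at 3.08%.

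The share without a Sol peak at genes that mark fiber types was read against the 7.44% of all regions tested, which lay inside the intervals of both lists. None of the 15 regions with EDL, Quad and Dia peaks whose nearest gene was on the list of 20 fast-fiber genes lacked a Sol peak, which allows a share of up to 20.4% by the Wilson interval. Of the 25 regions at the 20 slow-fiber genes, 2 lacked one (8%, 2.22% to 25.0%). The difference of -8 points had an interval of -25.0 to 13.2. At Fabp3, a fatty acid carrier of oxidative fibers, the region lay at -1882 bp from the start site, at percentiles 56.1 in EDL, 54.5 in Quad and 54.2 in Dia, 5591 bp from the nearest Sol peak. At Myh2, the myosin of fast oxidative fibers, an upstream region ranked at 4.70, 18.02 and 8.04, and the nearest Sol peak lay 10140 bp away. The Myh2 region was thus among the weakest peaks in all 3 lists. Myh4, Myh1, Myh7, Myh6, Ngdn, Pvalb and Bdh1, which the study displayed, were the nearest gene of no region missing only from Sol.

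At the 48 sarcomere and Z-disc genes 4 of 64 regions (6.25%, 2.46% to 15.0%) lacked a Sol peak, close to the 7.44% of all regions tested. Besides Acta1, these were regions of Tmod1, which caps thin filaments, Xirp1, an actin-binding protein of intercalated discs and muscle attachments, and Nrap, a scaffold of myofibril assembly. Tmod1 ranked at 77.1 in EDL, 82.5 in Quad and 38.1 in Dia, and no Sol peak had Tmod1 as nearest gene. Xirp1 ranked at 67.1, 76.4 and 45.3 and Nrap at 50.7, 70.5 and 59.2. A region inside an intron of Ttn, the giant spring of the sarcomere, was counted under Plekha3, whose start site was nearer. It ranked at 84.8 in EDL, 78.4 in Quad and 54.2 in Dia, and the nearest Sol peak was 117128 bp away. Acta1, Tmod1, Xirp1 and the Ttn region ranked lower in Dia than in both limb muscles, and Nrap ranked lowest in EDL. The median of the regions in all 4 lists was also lowest in Dia, at 63.5 against 71.3 in EDL and 78.4 in Quad.

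Calcium handling genes with such a region included Stim1, described above, and Trdn, which anchors calsequestrin to the calcium release channel. The promoter region of Trdn ranked at 61.02 in EDL, 63.0 in Quad and 34.1 in Dia, with a Sol peak 82 bp away. The Stim1 and Trdn regions thus lay within 100 bp of a Sol peak.

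Among metabolic genes, the shares ran from 1.85% to 7.69%, and each of the 3 intervals included the 7.44% of all regions tested. At the 37 glycolysis and glycogen genes 1 of 54 regions (1.85%, 0.328% to 9.77%) lacked a Sol peak, the promoter of Phkg1, the catalytic subunit of the muscle kinase that activates glycogen breakdown, at 58.7 in EDL, 68.2 in Quad and 42.9 in Dia. At the 38 genes of oxidative and fatty acid metabolism 4 of 52 did (7.69%, 3.03% to 18.2%), at Pdk4, Fabp3, Idh2 and Mb. Mb encodes myoglobin, the oxygen store of oxidative fibers, and its region ranked at 30.1, 44.98 and 35.4. Sol still held 4 peaks nearest to Mb, and the nearest Sol peak lay 6479 bp from this region. At the 26 genes of insulin action and glucose uptake 3 of 43 did (6.98%, 2.40% to 18.6%), at Tbc1d1, Irs2 and Prkag3, of which the region 39 bp from a Sol peak was that of Irs2. Prkag3, the AMPK subunit of glycolytic muscle, ranked at 52.5 in EDL, 7.89 in Quad and 8.04 in Dia. Its region was thus a mid-ranked peak in EDL alone.

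The transcription regulators and the positional genes also gave intervals that included the 7.44% of all regions tested. At the 65 muscle transcription regulators 7 of 128 regions (5.47%, 2.67% to 10.9%) lacked a Sol peak, at Sox6, Tead4, Mef2a, Rxra, Jun, Nfatc2 and Nr3c1. Sox6, a repressor of slow-fiber genes, had its region in the last exon at 78.4 in EDL, 60.1 in Quad and 39.2 in Dia, 3716 bp from a Sol peak. Tead4 ranked at 46.6, 52.1 and 61.4 at its first exon, with the nearest Sol peak 24666 bp away. Mef2a ranked at 52.5, 53.3 and 29.6 in an intergenic region at -49084 bp from the start site. Sol still held 12 peaks nearest to Sox6, 3 nearest to Tead4 and 8 nearest to Mef2a. At the 63 homeobox and T-box genes, which record where in the body a muscle formed, 2 of 29 regions (6.90%, 1.91% to 22.0%) lacked a Sol peak. The Tbx2 region, at the promoter of the neighboring transcript 2610027K06Rik, ranked at 38.3, 38.2 and 44.1, and an intergenic Meox2 region ranked at 39.6, 54.5 and 15.0.

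The highest share among the 11 gene lists was that of atrophy, autophagy and clock genes, at 8 of 70 regions (11.4%, 5.91% to 21.0%), and its interval included the 7.44% of all regions tested. Hlf, a clock-controlled PAR bZIP factor, had 2 of them, in one intron, at percentiles 54.4 and 42.1 in EDL, 61.1 and 64.0 in Quad and 54.2 and 49.7 in Dia. Of the core clock, the Clock promoter ranked at 33.0, 52.1 and 44.1, an intronic Arntl region at 27.1, 47.996 and 23.4 and an intronic Rora region at 34.3, 20.8 and 16.7, and Bhlhe41, a repressor of the clock, at 63.2, 71.9 and 41.7. Map1lc3a, an autophagosome protein, and Acvr2b, a myostatin receptor, held the others. A further region in the same intron of Rora was counted under its nearest gene 9530091C08Rik. It ranked higher than the Rora region above, at 63.2, 76.4 and 31.1. Sol held 14 peaks nearest to Rora, 5 nearest to Arntl, 1 nearest to Bhlhe41 and none nearest to Clock. The neuromuscular junction list gave 1 of 19, at Ncam1.

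Markers of other cell types were also read against the 7.44% of all regions tested. Endothelial markers gave 1 of 22 regions (Tek), fibroblast and tendon markers 1 of 7 (Fbn1), satellite cell markers 1 of 4 (Chrdl2) and Schwann and neural markers 1 of 4 (Ncam1). Leukocyte markers gave 0 of 3, adipocyte markers 0 of 5 and skeletal muscle markers 2 of 17, at Acta1 and Mb. The intervals of these lists included 7.44%. Smooth muscle and pericyte markers gave 2 of 4, with an interval of 15.0% to 85.0% that did not include 7.44%. Both regions belonged to Cspg4, a pericyte proteoglycan, and the interval treats these 2 regions of 1 gene as independent. The intervals were not adjusted for the 8 marker lists, so no excess is read from this list. Over all their peaks, Sol held 61 at endothelial markers, 39 at fibroblast and tendon markers, 12 at satellite cell markers and 18 at Schwann and neural markers, and the other lists held 34 to 69, 15 to 52, 7 to 23 and 6 to 19. Sol held 8 at smooth muscle and pericyte markers and 35 at skeletal muscle markers, against 6 to 19 and 21 to 36. Sol was lowest at adipocyte markers, with 7 peaks against 10 to 13, and level with Dia at leukocyte markers, with 4 against up to 11. The part of cell composition in the missing Sol peaks was not tested.

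Only 2 genes had 3 regions each. Cstad had 2 intergenic regions and 1 intronic region, with percentiles from 48.7 to 75.4 in EDL, 63.0 to 69.8 in Quad and 51.6 to 64.9 in Dia. Ncoa3, a coactivator of nuclear receptors, had an intronic region at 83.0, 85.6 and 82.6 with a Sol peak 17 bp away, and 2 weaker ones that ranked at or below 25.8 in every list. The 69 genes with 2 regions included 0610038B21Rik, 1110034G24Rik and 1700017J07Rik.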

How the data were processed

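ATAC-seq peaks of 4 mouse muscles were analysed, with 1 peak list per muscle that the labels call pooled. The authors transposed nuclei of frozen muscle, sequenced read pairs, aligned them to mm10 with Bowtie2, called fixed-width peaks per library with HOMER and annotated the nearest gene. The submitters' processing notes name Bowtie2, HOMER and mm10. The deposited score of a peak is HOMER's tag-based signal. It was used to rank peaks within a list, to select the highest peaks in the alternatives and to infer depth, assuming HOMER's default scaling. Whether reads were shifted for the Tn5 offset was not given in the sources used here. Width and detection threshold were set per list, so a missing peak means only that none was called there.

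Peaks were merged with Python 3.11.15 and pandas 2.3.3. A region took its annotation from its highest-ranked peak. Shares carry 95% Wilson intervals and differences Newcombe intervals. Coordinates are 1-based. All peaks lay inside the GRCm38.p6 chromosomes, and 97.8% of 120340 peaks had the authors' start site within 100 bp of the RefSeq one. Sequences are RefSeq GRCm38.p6, read with pysam 0.24.0. The calculations were tested on simulated data.

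The regions, gene lists, motifs and tests were chosen with earlier results of these data known. Named genes are the 10 highest-ranked regions, the 10 highest without a Sol peak within 5 kb, the 5 genes with most regions, the highest of each muscle gene list and the genes the study displays. Host genes, CTCF and MEF2 subsets and the oxidative, insulin, clock and marker genes named were added after values were seen. Some items covered by these rules are not reported here.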

Additional observations from a re-analysis of the deposited data

How the results depend on the processing

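Alternatives were run for 12 results, giving 73 values, of which 51 were counted as unchanged. A count or share was so counted if it kept about its size. A difference was so counted if it kept its direction and side, whatever its size. With the 20000 highest peaks of each list, 729 regions were missing only from Sol, with the upper 50% of each list 491, and the share of regions without a Sol peak was 6.06% and 5.52%. That share was 9.73% with 50% reciprocal overlap and 6.44% with peaks within 500 bp shared. In the order of these 4 settings the promoter share was 33.9%, 56.01%, 32.7% and 21.3%, and it was 29.3% with any start site within 1 kb. The share with a Sol peak within 500 bp was 43.6% with reciprocal overlap, where Sol peaks that overlapped a region by too little to be shared also count.

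With the upper 50%, the promoter difference to the regions in all 4 lists went from -27.7 to -13.8 points. The promoter difference to regions missing only from Dia went from 13.4 to 37.1 points with the upper 50%. The promoter difference to regions missing only from EDL was -4.68 points with the upper 50%, with an interval that held 0. The difference to Quad was 8.18 with the 20000 highest peaks, 15.9 with the upper 50% and 10.1 with peaks within 500 bp shared, each interval without 0, and -2.95 with reciprocal overlap. With promoters included, 7 of the 12 motifs differed in place of 4. The MEF2 difference was 0.440 points with the 20000 highest peaks, -2.80 with the upper 50% and -0.414 with promoters included, each interval holding 0. The CTCF difference stayed above 0 in its 8 alternatives, all chosen after seeing the data. The difference between fast- and slow-fiber genes was 1.67 points with the upper 50%. The causes of these shifts were not tested.

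No paired analysis was possible because each muscle had 1 peak list. Peak scores and positions limit what can be said: signal under a missing call was not analysed here, and nothing separates a muscle from its single peak list.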
